A study of Mus musculus with 6 samples.

Results

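The 7 genes Gabra2, Gabra3, Gabra4, Gabra5, Gabrb1, Gabrb2 and Gabrd encode subunits of the GABA-A receptor and were chosen by symbol. They are 7 of 19 GABA-A subunit symbols and of 25896 gene symbols in the deposited tables. Where a gene had several transcripts, the one with most counts on average stands for it. RNA came from the hippocampus of adult male C57BL/6 mice homozygous for floxed Dicer1, the gene of the ribonuclease that makes mature microRNAs. To these alleles the DICER1-ifKO genotype adds CaMKIIa-creERT2, a Cre recombinase switched on by tamoxifen and driven by a promoter active in forebrain excitatory neurons, while WT mice were without Cre. Both genotypes were given tamoxifen and taken 3 weeks afterwards, as 3-month-old animals. Each had 3 libraries with the RNA of 3 mice pooled in each, although the design text speaks of 12 mice per genotype. Since WT mice had the floxed alleles and tamoxifen but no transgene, effects of the active recombinase and of losing Dicer1 cannot be told apart. Interneurons and glia are outside the reach of that promoter as it is generally described, yet their RNA is in the same libraries.

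GABA-A receptors are chloride channels of pentameric build that open when GABA binds, and they carry most fast inhibition in the brain. Most hold alpha and beta subunits, which form the GABA binding site between them, together with a gamma or a delta subunit. The alpha subunit sets much of the receptor's location and pharmacology. In the hippocampus, alpha5 receptors are abundant on pyramidal cell dendrites and lie largely outside synapses, alpha2 receptors are found at synapses and on the axon initial segment, and alpha4 with delta forms receptors outside synapses on dentate granule cells.

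Library depth was 11832794 to 20677845 counts over the representative transcripts. Dicer1 itself had 653 to 985 counts in WT and 896 to 1187 in DICER1-ifKO, with a log2 fold change of 0.04 (SE 0.06). Its transcript in the tables spans the whole gene, so the value does not check the deletion, for which the labels cite a separate PCR test. Camk2a, the source gene of the promoter, had a log2 fold change of 0.11 (SE 0.05). All 10 excitatory neuron markers of the hippocampus and all 12 interneuron markers were detected in the libraries. WT replicate 1, the shallowest library, stood apart from the others on the first principal component (-26.6 against 1.5 to 10.1). Of 17405 genes tested, edgeR called 22 higher (0.126%) and 6 lower (0.0345%) in DICER1-ifKO, together 0.161%, with its quasi-likelihood F-test at a Benjamini-Hochberg adjusted p below 0.05.

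The 7 subunit genes had fitted folds of 0.962 to 1.114 in DICER1-ifKO over WT, and none of the differences passed the test. The 95% intervals of these folds reached 1.222 for Gabra2, 1.225 for Gabrb2 and 1.201 for Gabrd, and that of Gabra2 started at 1.016. All 7 passed the filter on low counts and none passed the edgeR test, against the 0.161% of all genes that did. One of them, Gabra2, had an unadjusted p below 0.05, as did 10.4% of all genes, or 5.63% counting only those higher in DICER1-ifKO. Genotypes did not overlap for 1 of the 7, Gabra5, and for 16.1% of all genes. Log2 fold changes ran from -0.06 to 0.16 with a median of -0.004, beside -0.003 for all genes tested. Levels are given as CPM, counts scaled to library size with edgeR's TMM factors, and fold changes are DICER1-ifKO over WT. In whole tissue, fewer cells of a type and less RNA per cell cannot be told apart.

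**Figure D1:**
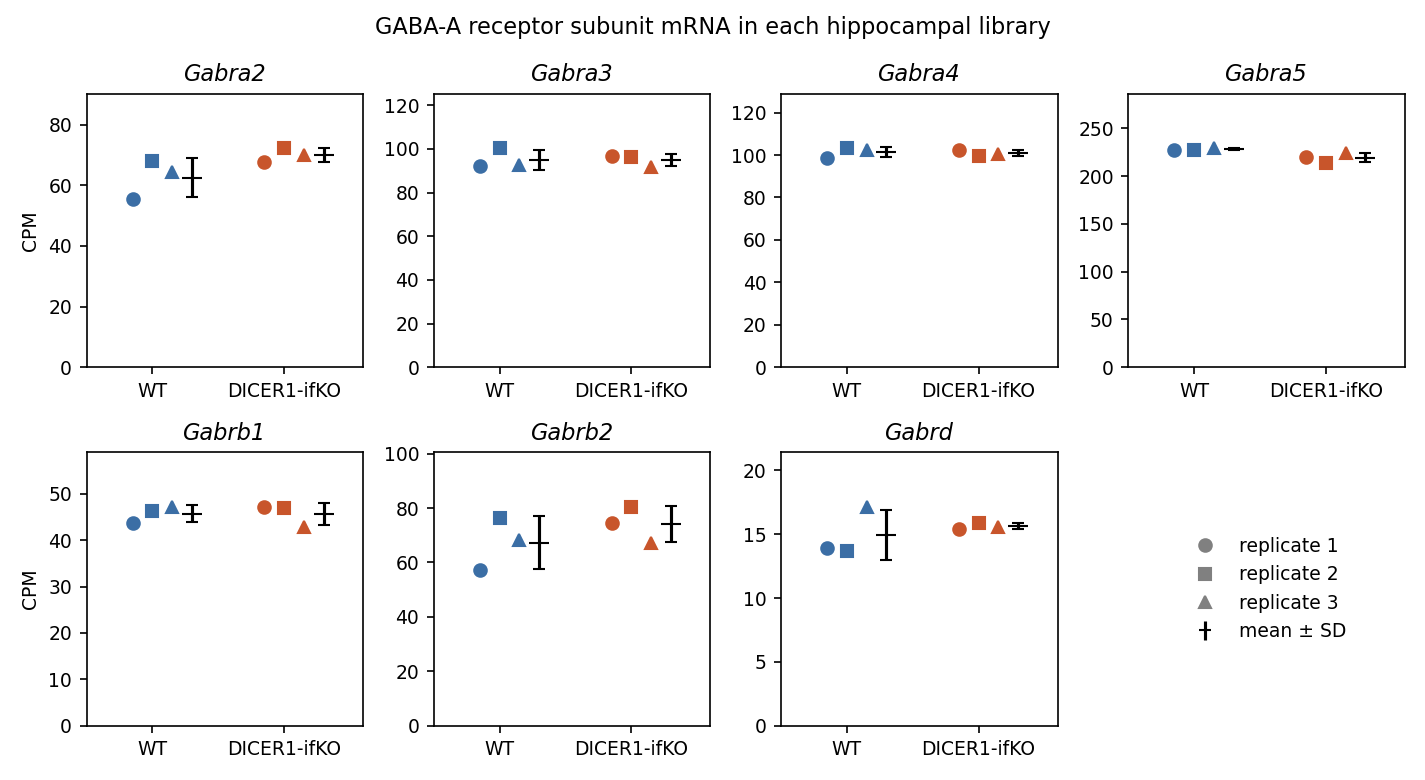
Level of each subunit mRNA in CPM (vertical axis, from 0) in the 3 WT and 3 DICER1-ifKO libraries; symbols give the replicate number and black bars the mean ± SD of 3 libraries. Genotypes overlap for every gene except Gabra5, where the DICER1-ifKO libraries lie at 214 to 224 CPM and the WT libraries at 227 to 229.

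Gabra5, the alpha5 gene of the extrasynaptic receptors of pyramidal cells, was the most abundant member. It lies at chr7:57407690-57510009 on the minus strand (GRCm38). Its CPM was 227.3, 227.3 and 229.1 in WT replicates 1, 2 and 3 and 220.1, 214.1 and 223.7 in DICER1-ifKO replicates 1, 2 and 3. The 3 DICER1-ifKO values all lay below the 3 WT values. Of all genes tested, 8.08% were separated in this direction. The log2 fold change was -0.06 (SE 0.04, 95% interval -0.15 to 0.04), which did not pass (adjusted p 0.719, edgeR with Benjamini-Hochberg adjustment). As a fold, the interval ran from 0.904 to 1.025. Of its 2653 exon bases, 266 lie in an exon of Gm9962 on the other strand, whose reads may be among these counts since the strand setting of the counting is not given in the sources used here.

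Gabra2, the alpha2 gene of synaptic receptors, had the highest log2 fold change of the members. It lies at chr5:70961057-71095849 on the minus strand. Its CPM was 55.3, 67.9 and 64.5 in WT replicates 1, 2 and 3 and 67.7, 72.2 and 70.02 in DICER1-ifKO replicates 1, 2 and 3. WT replicate 1 was the lowest library, and WT replicate 2 lay just above the lowest DICER1-ifKO library, so the groups overlapped. The WT mean was 62.6 ± 6.48 CPM and the DICER1-ifKO mean 69.99 ± 2.25 CPM (SD, n = 3 each). A log2 fold change of 0.16 (SE 0.06, 95% interval 0.02 to 0.29) did not pass (adjusted p 0.384, edgeR with Benjamini-Hochberg adjustment). Leaving out WT replicate 1 gave 0.08 (SE 0.06, edgeR adjusted p 0.748).

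Gabra3, the alpha3 gene on the X chromosome (chrX:72432681-72656186, minus strand), showed no separation of the genotypes. Its CPM was 92.02, 100.3 and 92.7 in WT replicates 1, 2 and 3 and 96.8, 96.1 and 91.9 in DICER1-ifKO replicates 1, 2 and 3. The lowest and the highest of the 6 libraries differed by less than 10 CPM and came from different genotypes. Its log2 fold change was -0.0036 (SE 0.05), and the interval as a fold ran from 0.926 to 1.074.

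Gabra4, the alpha4 gene of granule cell receptors with delta, was the steadiest of the alpha genes over all 6 libraries. It lies at chr5:71569734-71658308 on the minus strand. Its CPM was 98.8, 103.2 and 102.6 in WT replicates 1, 2 and 3 and 102.3, 99.5 and 100.7 in DICER1-ifKO replicates 1, 2 and 3. The DICER1-ifKO values all fell within the WT range. DICER1-ifKO over WT was -0.01 (SE 0.05) on the log2 scale, with an interval as a fold of 0.926 to 1.063.

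Gabrb1 and Gabrb2 encode the beta1 and beta2 subunits, which complete the GABA binding site and bear much of the receptor's contact with trafficking proteins. Gabrb1 (chr5:71699932-72138389, plus strand) had 43.7, 46.3 and 47.2 CPM in WT replicates 1, 2 and 3 and 47.2, 46.9 and 42.9 CPM in DICER1-ifKO replicates 1, 2 and 3. Its genotype means were all but equal, at 45.7 ± 1.82 and 45.7 ± 2.39 CPM (SD, n = 3 each). On the log2 scale the difference was -0.0058 (SE 0.06), with an interval as a fold of 0.910 to 1.090.

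Gabrb2 (chr11:42419757-42629028, plus strand) was the member that varied most within WT. Its CPM was 57.2, 76.4 and 68.4 in WT replicates 1, 2 and 3 and 74.5, 80.5 and 67.3 in DICER1-ifKO replicates 1, 2 and 3. WT replicate 1 was again the lowest library, while WT replicate 2 exceeded 2 of the 3 DICER1-ifKO libraries. Its log2 fold change of 0.13 (SE 0.08, 95% interval -0.04 to 0.29) did not pass (adjusted p 0.618, edgeR with Benjamini-Hochberg adjustment). It was 0.03 without WT replicate 1, 0.07 without DICER1-ifKO replicate 2, 0.23 without WT replicate 2 and 0.20 without DICER1-ifKO replicate 3, and none of these passed.

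Gabrd, the delta gene of extrasynaptic receptors, was the least abundant member and the least precisely measured. It lies at chr4:155384980-155398047 on the minus strand. It had 164, 217 and 279 counts in WT replicates 1, 2 and 3, or 13.96, 13.7 and 17.2 CPM. The DICER1-ifKO libraries had 238, 286 and 319 counts, or 15.5, 15.9 and 15.6 CPM, inside the WT range. The log2 fold change was 0.06 (SE 0.10), and its interval as a fold ran from 0.906 to 1.201. Without WT replicate 3, the WT library with the highest value, it was 0.18 (SE 0.10), and without WT replicate 2 it was -0.0069 (SE 0.11).

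**Figure D2:**
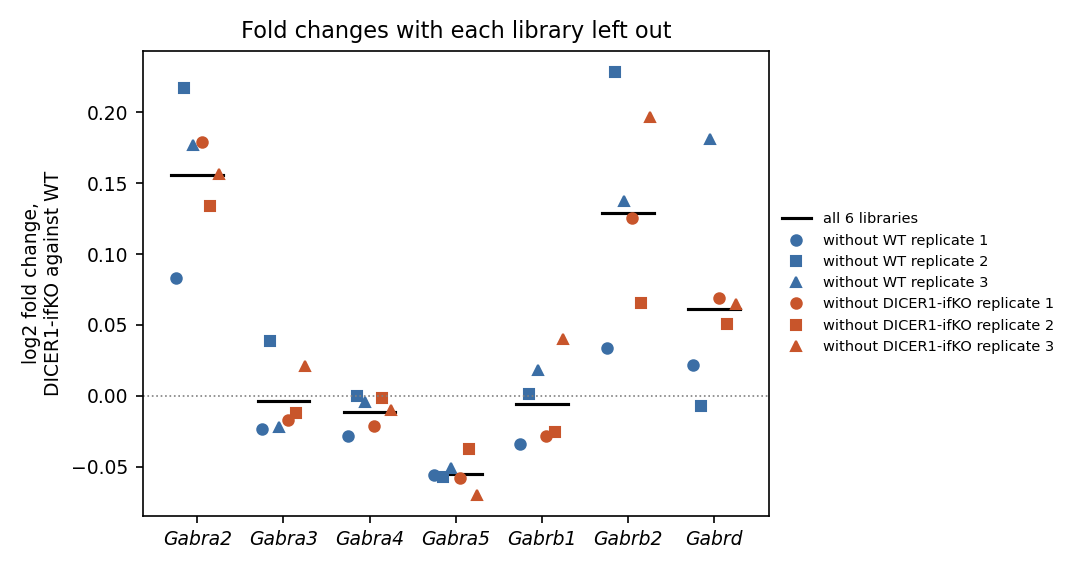
Log2 fold change of each subunit gene (vertical axis, DICER1-ifKO against WT) with all 6 libraries (black line) and with each library left out in turn (symbols, named in the legend). The fold change of Gabrb2 spans 0.03 to 0.23 and that of Gabrd -0.0069 to 0.18, whereas that of Gabra5 keeps between -0.07 and -0.04.

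WT replicate 1 was the lowest of the 6 libraries for 3 of the 7 genes, Gabra2, Gabra4 and Gabrb2, and the highest for none. This library also stood apart over all genes, as given above. The correlation of each library with length (rho) was -0.261, 0.069 and -0.115 in WT replicates 1, 2 and 3. It was 0.114, 0.138 and 0.083 in DICER1-ifKO replicates 1, 2 and 3. Once a length and GC offset was added, Gabra2 went from 0.156 to 0.174 (edgeR adjusted p 0.302). Gabrb2 went from 0.129 to 0.124 (edgeR adjusted p 0.607). Whether WT replicate 1 plays a part in these fold changes was not tested beyond the offset and leaving the library out.

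Levels of different genes were compared per kilobase of exon, since longer transcripts collect more reads. Gabra5 stood first in every library, at 80.7 to 86.4 CPM per kilobase. Gabra2 followed at 24.7 to 32.2, Gabra3 at 25.1 to 27.4 and Gabra4 at 24.1 to 25.1. The ranges of Gabra2, Gabra3 and Gabra4 overlapped one another. Within single libraries, Gabra4 was the lowest of these 3 in all 6, and Gabra2 lay above Gabra3 in 5 of 6, all but WT replicate 1. Gabrb2 came next at 14.3 to 20.2 CPM per kilobase and Gabrb1 at 13.9 to 15.3, with overlapping ranges but Gabrb2 above Gabrb1 in each of the 6 libraries. Gabrd was last at 5.05 to 6.34, or 7.11 to 8.93 with the length of Gabrd-001, which had the same counts as the transcript used, Gabrd-002.

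**Figure D3:**
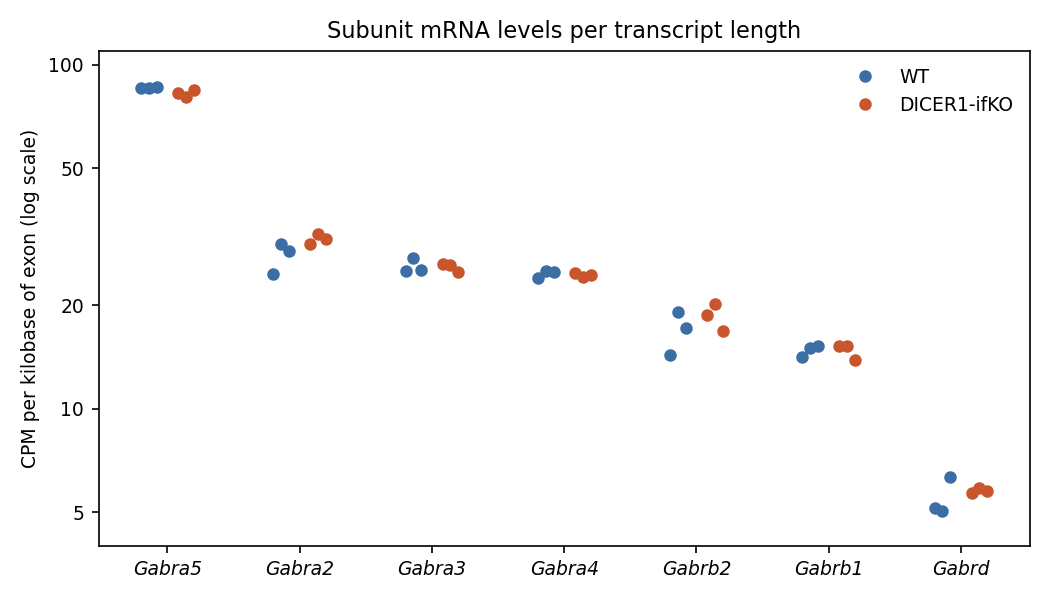
Level of each subunit mRNA in CPM per kilobase of exon (vertical axis, log scale) in the single WT and DICER1-ifKO libraries, ordered by the mean of 6 libraries. Gabra5 lies apart at 80.7 to 86.4, Gabra2, Gabra3 and Gabra4 share one band, and Gabrd lies lowest at 5.05 to 6.34.

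Among the 4 alpha genes, Gabra5 made up 52.3% ± 1.42 of their summed level per kilobase in WT and 50.3% ± 0.838 in the knockout (SD, n = 3 each). Gabra2 made up 15.5%, 17.9% and 17.4% in WT replicates 1, 2 and 3 and 18.3%, 19.7% and 18.9% in DICER1-ifKO replicates 1, 2 and 3. The Gabra2 share was thus higher in each DICER1-ifKO library than in any WT library, where the closest pair was 17.9% and 18.3%. The shares of the other alpha genes and of the beta pair overlapped between the genotypes, as did the CPM of Gabra2 itself. In CPM of single genes, 7.99% of all genes tested were separated in this direction, and no such rate was computed for shares. Gabra3 held 15.2% to 16.3% and Gabra4 14.8% to 15.1% in all 6 libraries. Of the summed level of the beta pair, Gabrb2 made up 53.1% ± 2.89 in WT and 55.6% ± 1.22 in DICER1-ifKO (SD, n = 3 each). These shares add to a fixed total within a library, so one cannot change alone, and they were not tested.

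The deposited transcript models bear on these levels. Gabra2, Gabra4 and Gabrb1 lie on chromosome 5 in 1 cluster, in which the models of Gabra4 and Gabrb1 point away from each other across 41623 bases, while 46 exon bases of Gabra4 lie in an annotated exon of Gabrb1 on the other strand. The models of Gabra2 and Gabrb1 stop 3460 and 10648 bases before the end of the coding transcript of each gene in GENCODE release M21. Reads from those distal 3′ UTR stretches are not in their counts, and their place in the order of levels refers to the shorter models.

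Gabra3, Gabrb2 and Gabrd had further transcripts in the tables, which may share reads with the main one. Gabra3-002 ends short of the 3′ end of Gabra3-001 and had 61.2%, 67.0% and 67.1% of its counts in WT replicates 1, 2 and 3. In DICER1-ifKO replicates 1, 2 and 3 the ratio was 68.3%, 68.98% and 64.8%, so the genotypes overlapped. The 3 shorter Gabrb2 transcripts from the 5′ part of the gene had 6.10% to 16.7% of the counts of Gabrb2-001, with overlapping genotypes for each. None of the 14 transcripts of the 7 genes passed the edgeR test over 60500 transcripts, of which 0.0777% did. The transcript with the smallest unadjusted p was Gabra2-201, with an adjusted p of 0.49 in that test.

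Since mature microRNAs are what Dicer1 makes, the 3′ UTRs of the 7 genes were searched for matches to the seeds of 19 microRNAs known from brain. A microRNA guides the Argonaute complex to mRNAs mainly through its seed, bases 2 to 8, which pairs with a complementary stretch in the 3′ UTR. The microRNAs that matched the most members, with the one matching inside the deposited Gabra2 model and the one matching Gabra5, are shown 5′ to 3′ with the seed in capitals (RefSeq, GRCm38.p6).
mmu-miR-30a-5p: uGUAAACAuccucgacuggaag
mmu-miR-34a-5p: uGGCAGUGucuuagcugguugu
mmu-miR-221-3p: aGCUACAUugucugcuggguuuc
mmu-miR-218-5p: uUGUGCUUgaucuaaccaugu
A match is the reverse complement of the seed as DNA, searched on the transcript strand alone, and describes letters, not binding. The background was 13292 tested genes with a 3′ UTR of at least 50 bases. For miR-30a the match is TGTTTAC, which 14.7% of these genes held. For miR-34a it is CACTGCC, held by 16.0% of genes. For miR-221 it is ATGTAGC, held by 9.8%. For miR-218 it is AAGCACA, held by 1862 of the 13292.

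The miR-34a match stood in Gabra3, Gabra4 and Gabrb1, and the miR-30a match in Gabra2, Gabrb1 and Gabrb2. Some of these sites are shown with the bases around them, with the match in capitals (GENCODE M21, GRCm38, transcript strand). The Gabra2 miR-30a site lies beyond the end of the deposited model, and the others lie inside it.
Gabra3, miR-34a, chrX:72434432-72434438, minus strand: tgagccaaaCACTGCCatttgtcc
Gabra4, miR-34a, chr5:71571300-71571306, minus strand: tcccattggCACTGCCcttaacca
Gabrb1, miR-34a, chr5:72137889-72137895, plus strand: agttatctgCACTGCCaaatctta
Gabrb2, miR-30a, chr11:42628235-42628241, plus strand: tttaaagggTGTTTACgttgtata
Gabra2, miR-30a, chr5:70960579-70960585, minus strand: cttctttccTGTTTACtgcaaatt
Gabra2, miR-221, chr5:70961254-70961260, minus strand: ttaattactATGTAGCatatctat
Gabra5, miR-218, chr7:57408041-57408047, minus strand: tttaatgacAAGCACAtagtgtct
The Gabra3, Gabra4 and Gabrb1 sites share 7 letters and differ around them, and these 3 genes had log2 fold changes of -0.0036, -0.01 and -0.0058. The Gabra3 site is absent from the shorter Gabra3-002, which ends at position 72434575.

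Longer 3′ UTRs hold more matches, so each gene is set beside genes of like UTR length, within a ratio of 0.8 either way. Gabra2 has a 3′ UTR of 4205 bases and matched 6 of the 19 microRNAs, equal to the median for 1038 such genes. Only 1 of its 7 sites lay inside the deposited model. Gabrb1 has 12228 bases and matched 13 microRNAs at 30 sites, beside a median of 12 for 22 genes of like UTR length, and 7 of the 30 lay inside the deposited model. Gabra4 matched 3 microRNAs (median 3 for genes of like UTR length), Gabra3 1 (median 3), Gabra5 1 (median 2) and Gabrb2 1 (median 4). Gabrd, whose 3′ UTR has 421 bases, matched none, beside a median of 1. Gabrb1 and Gabra2, with the most matches, had log2 fold changes of -0.0058 (SE 0.06) and 0.16 (SE 0.06). Of the genes with 1 match, Gabra3 had -0.0036 (SE 0.05), Gabra5 -0.06 (SE 0.04) and Gabrb2 0.13 (SE 0.08), and no relation between matches and fold change was tested. The matches of miR-27b and miR-128 overlap in sequence and are not independent.

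No other listed gene of the GABA synapse passed in the main edgeR fit, with all libraries and the filter on low counts. Slc12a5, Trak2 and Iqsec3 did pass under some alternatives, which called more genes in all than the 28 of the main fit. DESeq2 called 55 of 17405 genes, with no adjusted p for 12485 of them. Without a filter edgeR called 151 of 22441, and without WT replicate 2 it called 105 of 17584. The genes named from each list are among those with its smallest p. Of the other GABA-A subunit genes, 7 of 12 had enough counts to be tested and 0 were called, with a median log2 fold change of 0.06, or 0.0137 once a length and GC offset was added. The gamma subunit genes Gabrg3 and Gabrg1 had log2 fold changes of 0.09 (SE 0.08) and 0.06 (SE 0.09), which were 0.0345 and 0.0137 with that offset. That of Gabrq, the theta gene at under 1 CPM, was -0.18 (SE 0.36). Over the 14 subunit genes tested, 7 had a positive and 7 a negative fold change.

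Of 22 genes for receptor anchoring and trafficking, 0 were called, 12 had a positive fold change and the median was 0.02, or -0.0072 with the length and GC offset. Groups did not overlap for 4 that were higher and 3 that were lower in DICER1-ifKO, where 7.99% and 8.08% of all genes were separated in those directions. Trak2, a kinesin adaptor that binds the receptor's beta subunits, was at 143.4, 163.4 and 164.4 CPM in WT replicates 1, 2 and 3 and 193.6, 182.9 and 170.5 CPM in DICER1-ifKO replicates 1, 2 and 3. All 3 DICER1-ifKO values exceeded the WT values, by 0.21 on the log2 scale (SE 0.06). The edgeR adjusted p was 0.159, or 0.0197 without a filter on low counts. With the length and GC offset Trak2 was at 0.17 (edgeR adjusted p 0.186). Sums over transcripts gave an edgeR adjusted p of 0.318, and leaving out DICER1-ifKO replicate 1 gave 0.548. Iqsec3, a gephyrin-binding exchange factor of inhibitory synapses, had 0.16 (SE 0.05, edgeR adjusted p 0.18), and 0.21 without WT replicate 2 (edgeR adjusted p 0.0478). With the length and GC offset it had 0.10 (edgeR adjusted p 0.421). Zdhhc3, a palmitoyltransferase of the gamma2 subunit, had 0.12 (SE 0.06), and Gabarapl2, of the family of the receptor-associated protein GABARAP, -0.16 (SE 0.05).

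Of 5 tested genes that set the chloride gradient, 0 were called. Their median of 0.04 was -0.0245 without DICER1-ifKO replicate 1, 0.11 without DICER1-ifKO replicate 3 and -0.0030 with the length and GC offset and replicate block. Slc12a5, the neuronal chloride exporter KCC2 on whose gradient GABA-A inhibition depends, was at 342.8, 369.3 and 369.5 CPM in WT replicates 1, 2 and 3. It was at 405.5, 398.5 and 423.6 CPM in DICER1-ifKO replicates 1, 2 and 3, above every WT library. Of all genes tested, 7.99% were separated in this direction. The Slc12a5 log2 fold change of 0.18 (SE 0.05, 95% interval 0.09 to 0.28) did not pass over all genes in edgeR, at an adjusted p of 0.13. It did pass in DESeq2 (adjusted p 0.0254, 55 genes called) and in edgeR without a filter on low counts (adjusted p 0.0311, 151 genes called). With the length and GC offset it was 0.13 (edgeR adjusted p 0.252, or 0.367 with the replicate block), and sums over transcripts gave an edgeR adjusted p of 0.34. Car7, a neuronal carbonic anhydrase, had 0.08 (SE 0.07), the chloride channel gene Clcn2 -0.05 (SE 0.05), and Slc12a2, the chloride importer NKCC1, 0.04 (SE 0.07).

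Of 7 genes for GABA synthesis and transport, 0 were called and 6 had a positive fold change, as had 8519 of all 17405 genes tested. Their median was 0.06, or 0.0449 with the length and GC offset and 0.0259 without DICER1-ifKO replicate 3. Gad1 and Gad2, which make GABA in interneurons, had 0.09 (SE 0.05) and 0.07 (SE 0.05), the latter 0.0449 with the length and GC offset. The GABA transporter gene Slc6a11 had 0.06 (SE 0.05).

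**Figure D4:**
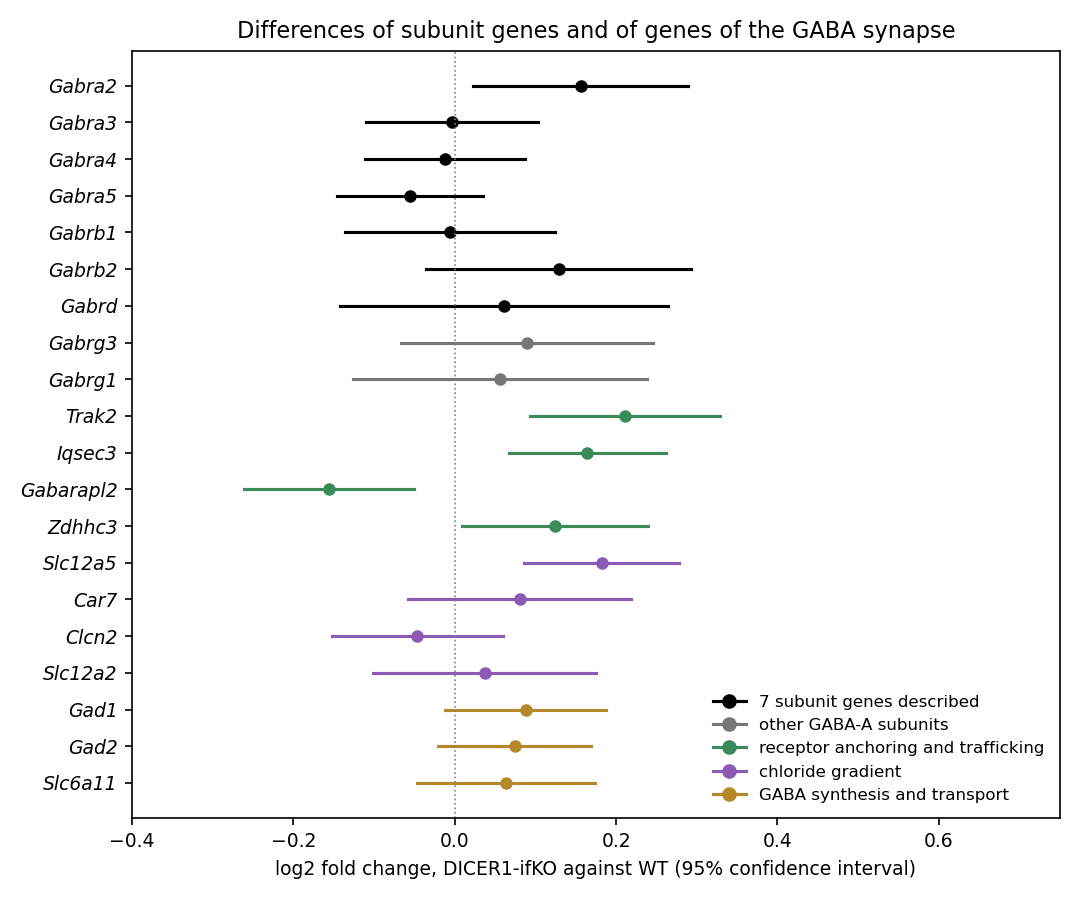
Log2 fold change of DICER1-ifKO against WT (horizontal axis) with its 95% confidence interval for the 7 subunit genes (black) and for the genes of 4 lists named in the text (colours); Gabrq, whose interval runs from -0.92 to 0.56, is left out. The intervals of 6 of the 7 subunit genes include 0. Those of Gabra2, Trak2, Iqsec3, Zdhhc3, Gabarapl2 and Slc12a5 do not, and none of these passed after adjustment over all genes in the main fit, shown here. Genes of the 4 lists were picked for the smallest p in each, which favours intervals without 0.

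Markers of the cells that carry these receptors were measured beside them. The summed level of 12 interneuron markers was 668 to 729 CPM in WT and 687 to 728 in DICER1-ifKO, and that of 10 excitatory neuron markers 1681 to 1739 and 1648 to 1767. Single excitatory markers had 4 positive and 6 negative log2 fold changes, from -0.39 to 0.10. Interneuron markers had 8 positive and 4 negative ones, from -0.26 to 0.16, and edgeR called 0 in either list. The 10 dentate granule cell markers summed to 1008 to 1094 CPM in WT and 985 to 1054 in DICER1-ifKO, with 3 positive and 7 negative log2 fold changes from -0.27 to 0.31. Of these, edgeR called 0 higher and 1 lower, Calb1 (-0.27, SE 0.05, adjusted p 0.0323), named after its value was seen, where 0.0345% of all genes were called lower. Without WT replicate 3, or without DICER1-ifKO replicate 1, edgeR called 0 genes lower, so Calb1 was not among the calls there. Sums of 8 astrocyte markers were 3422 to 3594 CPM in WT and 3624 to 3774 in DICER1-ifKO, and those of 8 microglia markers 423 to 449 and 415 to 419, so that neither overlapped. Single genes did not all follow the sums: 4 astrocyte markers had a positive and 4 a negative fold change (median -0.022), and 2 microglia markers a positive and 6 a negative one (median -0.13). None of these 16 passed, and 16.1% of all single genes were separated between the genotypes. No marker of these 5 lists was at 0. Markers of thalamus and striatum summed to 155 to 167 CPM in WT and 156 to 162 in DICER1-ifKO. Their part in the values of the subunit genes was not tested.

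For each subunit gene the non-member with the most similar course over the 6 libraries was named by the root-mean-square difference of log2 CPM, each centred on its own mean, among 11940 genes. The nearest was Larp4b for Gabra2 (0.016), Psip1 for Gabra3 (0.012), Clptm1l for Gabra4 (0.007), Sdhd for Gabra5 (0.009), Ubr3 for Gabrb1 (0.008), Rnf144b for Gabrb2 (0.029) and Frmd4b for Gabrd (0.025). Between 3 and 52 genes lay within a difference of 2 times the smallest for a member, so these names mark close courses among many over 6 libraries.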

How the data were processed

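mRNA libraries from mouse hippocampus (stranded mRNA kit, per the labels' protocols) were compared between 3 WT and 3 DICER1-ifKO samples, stated to be biological replicates. The aligners TopHat2 2.0.6 and Bowtie2 2.0.5, with SAMtools 0.1.18, CASAVA 1.8.2 and DESeq2, and the builds mm10 and GRCm38 are named per the submitters' processing notes. Which program counted reads, with which strand setting and annotation, is not given in the sources used here. The deposited raw counts are whole reads for each of 76938 transcripts, per the file headers. A second deposited column, a normalised signal, is that count over a constant of its library and was not tested.

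Transcripts of a gene may share reads, so each symbol was represented by 1 transcript. How reads were assigned to transcripts is not given in the sources used here. Gabrd had 2 transcripts with equal counts in each library but models of 7 and 9 exons, and the first listed was used. Levels per kilobase take the counts as reads in exons, which was not tested. edgeR 4.0.16 in R 4.3.3 was run on all genes (TMM, filterByExpr with a minimum count of 10, quasi-likelihood F-test, genotype as the only term, Benjamini-Hochberg adjustment, threshold 0.05), and on all transcripts. The step was also run on counts simulated with the dispersions fitted here. Those had no outlying library and no trend with transcript length, so they do not show how the fit handles such features. SE is the fold change divided by the square root of F, and intervals are 95%, unadjusted. At the depths given, the common biological coefficient of variation was 0.0464. Exon lengths are those of the GENCODE M21 transcript with identical coordinates (3 genes) or the closest span (4 genes), within the deposited span.

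The named genes are all members, Dicer1, Camk2a, and up to 4 genes with the smallest p in each pathway list, with the nearest gene to each member; 2 of the pathway genes are not reported here. Members and lists were chosen with earlier results of these data known. One of 6 listed chloride gradient genes and 1 of 20 listed microRNAs, mmu-miR-124-3p, were not analysed here. Alternatives were other normalization (RLE), DESeq2 1.42.0, limma-voom (3.58.1), other filters, sums over transcripts, leaving out each library, the replicate block, and an offset for length and GC content (mgcv 1.9.3; 95.8% of tested genes).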

Additional observations from a re-analysis of the deposited data

How the results depend on the processing

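None of the 7 subunit genes passed under the 15 alternatives where it had an adjusted p. DESeq2 gave none for Gabrb1, Gabrd and 12485 of 17405 genes in all. The fold changes of Gabra2, Gabra5 and Gabrb2 kept their sign in all 15. Fold changes near 0 changed sign: with counts summed over transcripts Gabra3 was at 0.0231, and with the length and GC offset Gabrb1 was at 0.0017, or 0.0018 with the replicate block added. Leaving out 1 library gave log2 fold changes of -0.0236 to 0.0384 for Gabra3, -0.0285 to 0.0001 for Gabra4, -0.0338 to 0.0398 for Gabrb1 and -0.0069 to 0.181 for Gabrd. The number of members at an unadjusted p below 0.05 was 2 without a filter, 0 with sums over transcripts and 0 to 2 with a library left out. Genes called higher and lower numbered 45 and 10 in DESeq2, 108 and 43 without a filter, 6 and 1 with sums over transcripts, and 6 to 72 and 0 to 33 with a library left out.

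The replicate block left 20 higher and 2 lower, and 14 and 2 with the length and GC offset. With the block alone Gabra2 was at 0.16 (edgeR adjusted p 0.351), and the block changed no member's call. Same-numbered libraries shared only a number (correlation of deviations -0.068, 0.028 and -0.086), and WT replicate 1 correlated best with DICER1-ifKO replicate 3 (0.128). Among other named genes, leaving out 1 library gave -0.3386 to 0.0112 for Gabrq and -0.0245 to 0.1124 for Slc12a2, 0.05 to 0.14 for Gabrg3, 0.0189 to 0.0936 for Gabrg1, 0.0286 to 0.122 for Car7, -0.0701 to -0.014 for Clcn2 and 0.014 to 0.114 for Slc6a11 (0.0099 for Gabrq without DICER1-ifKO replicate 1), Slc12a2 was at -0.0030 with the offset and replicate block, and Dicer1 at -0.0167 with the offset and -0.0159 with both. The cause of these changes was not tested. Gabrd, at 164 to 319 counts, had the fewest counts and the highest SE (0.10) of the members.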
